A study of Bos taurus with 8 samples.

Results

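The microRNA miR-218 has a pair of entries on the bovine array of this study, a current one, bta-miR-218 (miR-218 below), and an older one, bta-miR-218_v13.0 (miR-218_v13.0), whose suffix marks an earlier release of the microRNA database. The members were chosen by these 2 names. They are 2 of the 763 miRNA entries of the array and hold 4 of its 1657 probes. The entries were picked out with their breed difference already known, so that difference is given below as a description without a test. Mammary gland tissue came from 8 heifers that were not pregnant, 4 Holstein-Friesian, a breed kept for milk, and 4 Limousin, a breed kept for beef. Their age is 20 months in the sample characteristics and 2 years in the labels' protocol. No animal received a treatment that the labels name, and each animal had its own one-colour array, so that the 4 arrays of a breed are 4 animals. The tissue was a piece of the whole gland, which as background holds epithelium, stroma, fat and blood cells together, and in such bulk samples fewer cells of a type and less RNA per cell cannot be told apart.

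In mammals miR-218 is encoded in introns of SLIT2 and SLIT3, genes for secreted guidance proteins that signal through ROBO receptors. The miRNA is known for repressing ROBO1, for its abundance in motor neurons and for a role in bone-forming cells. In the mammary gland the SLIT and ROBO pair is known for restraining the branching of ducts. RefSeq's gene table of the ARS-UCD2.0 cattle assembly lists 2 genes of the miRNA, MIR218-1 within SLIT2 on chromosome 6 and MIR218-2 within SLIT3 on chromosome 20. The array reads the mature miRNA, which both genes can give, and the host genes themselves were not measured.

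The 4 probes are shown because the comparison of the entries turns on how much sequence they share. Each is written from its 5′ end as the scanner files give it, with the 16 bases common to all 4 probes in capitals.
miR-218, 17 bases: cACATGGTTAGATCAAG
miR-218, 18 bases: cACATGGTTAGATCAAGc
miR-218_v13.0, 19 bases: ACATGGTTAGATCAAGcac
miR-218_v13.0, 20 bases: ACATGGTTAGATCAAGcaca
Laid over each other, the probes span 21 positions, counted from 1 at the 5′ end of the current entry's probes. The current entry's probes cover positions 1 to 17 and 1 to 18, and the older entry's cover positions 2 to 20 and 2 to 21. The longest probe of each entry thus shares 17 bases with the longest probe of the other. The reverse complement of the 20-base probe, tgtgCTTGATCTAACCATGT, is the stretch of miRNA that this probe would pair with, written in DNA letters. The current entry reaches 1 base further at the 3′ end of the miRNA, and the older entry reaches 3 bases further towards its 5′ end. Among the 1653 other probes, the longest run shared with any of the 4 was 8 bases, in miR-2381, which was detected on no array. The close relative of each entry on this array was therefore the other entry.

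The array annotation, whose headers name the cattle build UMD 3.1, places the 18-base probe at 3 positions, chr6:41257120-41257137, chr6:41545057-41545074 and chr20:444324-444341, the last of which it writes in descending order; no strand is named. It places the 20-base probe at chr20:2621245-2621263, an interval of 19 positions for 20 bases. The chromosomes are those of the host genes, but the 2 entries carry different positions on chromosome 20. Which of them fits the build was not analysed here, and the annotation names no exon or intron.

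Across the arrays, 28.6% to 35.5% of the 45780 spots that are not controls were well above background, 243 to 297 of the 763 miRNAs were detected, and no spot was saturated. All 8 arrays were on 1 slide with 1 scan. The 4 Holstein-Friesian arrays lay in the first position index and the 4 Limousin arrays in the second, so that position and breed cannot be told apart. Holstein-Friesian replicate 2 stood at the low end, with the fewest detected miRNAs (243) and the lowest 75th percentile of signal, by which arrays were scaled. Without it, the log2 differences described below were 1.22 for miR-218 and 0.84 for miR-218_v13.0.

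The older entry was detected in every animal of both breeds. A spot is flagged by the scanner software as well above background, and a probe passed as detected where over 50% of its 30 spots had that flag. For the 20-base and the 19-base probe of miR-218_v13.0, all 30 spots were flagged on each of the 8 arrays. The 18-base probe of miR-218 had 28, 30, 28 and 30 of 30 spots flagged on Limousin arrays 1 to 4 and 0 of 30 on each Holstein-Friesian array. Its 17-base probe, which is shorter by 1 base, had at most 1 flagged spot of 30 on any array and was detected on none. The current entry was thus detected in 4 of 4 Limousin and 0 of 4 Holstein-Friesian animals, through 1 of its 2 probes.

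The background-corrected signal of the 20-base probe, averaged over its spots and not yet scaled between arrays, was 35.2, 33.0, 64.7 and 46.2 scanner units on Holstein-Friesian arrays 1 to 4. On Limousin arrays 1 to 4 it was 138.1, 183.3, 103.7 and 160.0. The lowest Limousin array lay above the highest Holstein-Friesian array, and the SD over the spots of 1 array was between 5.23 and 16.8. The 19-base probe gave the same order of breeds, with 26.6 to 49.8 in Holstein-Friesian and 82.0 to 146.9 in Limousin. The 18-base probe of the current entry read 5.22, 7.48, 10.3 and 6.66 in Holstein-Friesian and 25.6, 36.5, 21.97 and 29.7 in Limousin. Here too the breeds did not overlap, but the Holstein-Friesian values lay below the lowest signal of any detected probe on those arrays, which was 16.5 to 19.7. The mean of the negative control spots was between -1.43 and -0.23 with an SD of 2.85 to 3.02 over spots, so the 18-base probe's mean in Holstein-Friesian stood above the controls' mean on each array without passing as detected. The 17-base probe read -0.73 to 0.10 in Holstein-Friesian and 2.38 to 3.65 in Limousin, and no array's value passed as detected. Levels of different probes are not set against each other, since probes of unequal length bind differently.

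**Figure D1:**
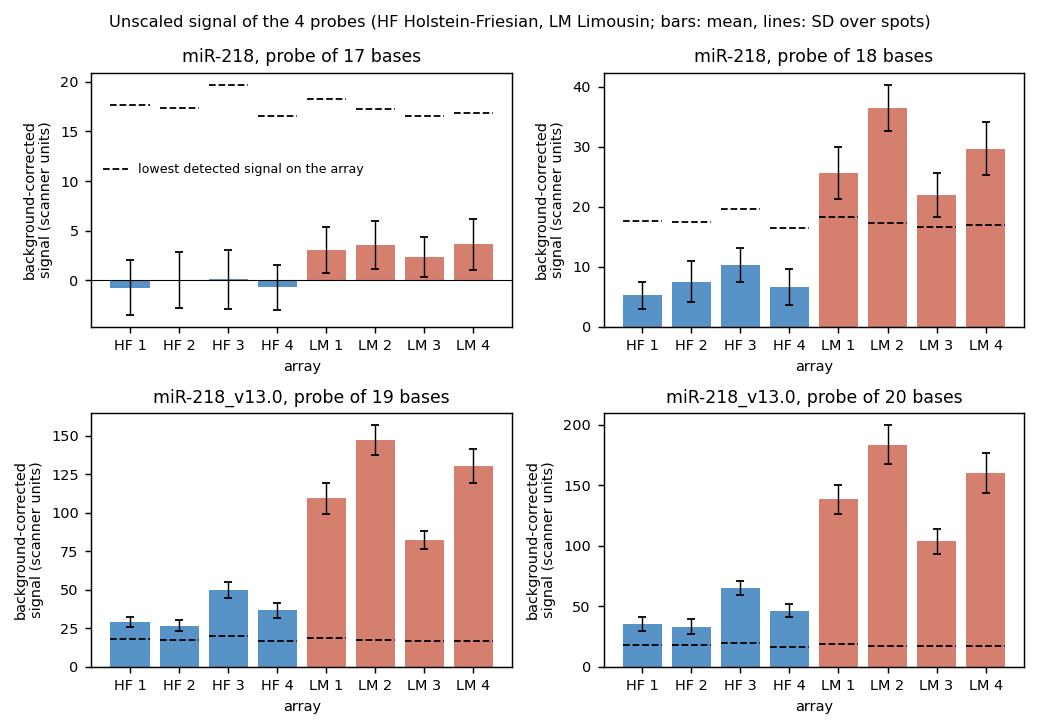
Background-corrected signal before scaling (scanner units, vertical axis) of the 4 probes on each array, with bars for the mean and lines for the SD over a probe's spots, and dashed marks for the lowest signal of a detected probe on that array. Both probes of miR-218_v13.0 stand above the marks on all 8 arrays, the 18-base probe of miR-218 on the 4 Limousin arrays, and the 17-base probe on none.

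Part of the gap between breeds in these signals was shared by the whole array. Each array was scaled by its 75th percentile, taken over probes that every array detected, and this was 557 to 939 in Holstein-Friesian and 943 to 1579 in Limousin. After scaling and log2, the 20-base probe had 5.75, 5.83, 6.05 and 6.16 in Holstein-Friesian and 6.82, 6.80, 6.72 and 6.95 in Limousin. The ranges still did not overlap, with 0.56 between the nearest arrays. The means were 5.95 ± 0.19 (SD, n = 4) and 6.82 ± 0.09 (SD, n = 4), a log2 difference of 0.88 (SE 0.12), or 1.83-fold higher in Limousin. The 19-base probe gave 5.62 ± 0.16 and 6.50 ± 0.11 (SD, n = 4 each), again a log2 difference of 0.88 (SE 0.12). Both probes of the older entry hence gave the same size of difference within their SE. The probes share most of their bases and were read on the same 8 labelled samples, so that they are no independent replicates of each other.

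For the current entry, the scaled log2 signal of the 18-base probe was 2.99, 3.69, 3.40 and 3.37 in Holstein-Friesian and 4.39, 4.47, 4.49 and 4.52 in Limousin. The 4 Limousin arrays lay within a narrow band and the Holstein-Friesian arrays spread over a wider one, below the detection limit. The fitted log2 difference was 1.103 (SE 0.15), which rests on undetected signals in Holstein-Friesian. On the scaled, not logged, scale the lowest detected signal was 20.15 to 30.02 on the Holstein-Friesian arrays and 10.5 to 16.9 on the Limousin arrays. The Limousin signals of the 18-base probe, 20.9 to 22.9 on that scale, were above the limit of 1 of the 4 Holstein-Friesian arrays, replicate 3. Detection in 1 breed and not in the other therefore does not by itself give a fold. The bound of Limousin over the Holstein-Friesian detection limit was under 1, so that no fold is given for miR-218.

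**Figure D2:**
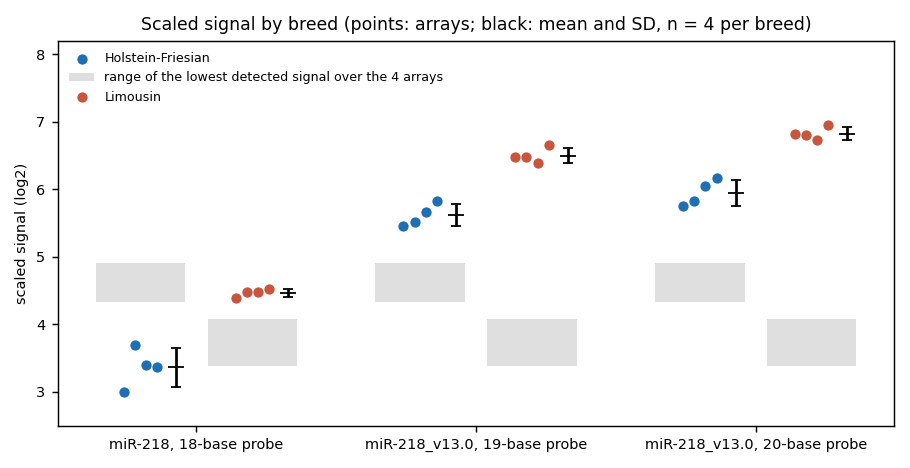
Scaled log2 signal (vertical axis) of the 18-base probe of miR-218 and both probes of miR-218_v13.0, 1 point per array, with the mean and SD of 4 arrays per breed beside the points and a grey band for the range of the lowest detected signal over the 4 arrays of a breed. The breeds do not overlap for any of the 3 probes, and the Holstein-Friesian points of the 18-base probe lie below their band.

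Both entries had a breed gap without overlap, against 15.9% of the 270 tested miRNAs (43) that were higher in Limousin without overlap of the breeds. This share stands as the background, and nothing is read from the members' count, since the entries were chosen on this contrast. Ranked by the increase, miR-218_v13.0 was at place 5 of 270. That place moved with the processing. It was 14 with the probes' GC share and length fitted out and 18 in the deposited value table. Without background correction it was 35, and with the normexp background correction 49. No place is given for miR-218, whose Holstein-Friesian signals were not above background. Over all tested miRNAs the median log2 difference was -0.069. With Benjamini-Hochberg adjustment in limma, 37 miRNAs (13.7%) passed at 0.05 as higher and 76 (28.1%) as lower in Limousin. That split hangs on the scaling. It was 40 higher and 59 lower with scaling to the median, 54 and 42 with quantile scaling, 104 and 30 with the percentile over all probes, and 173 and 2 without scaling. The deposited value table gave 81 and 28.

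The size of the members' difference also moved with the scaling, while their difference relative to all miRNAs did so less. For miR-218_v13.0 the log2 difference was 0.88 as scaled here, 1.20 with the percentile over all probes, 1.66 with scaling to the labelling spike-in and 1.73 without scaling. Each of these scalings shifts all miRNAs of an array by 1 constant, so that the difference minus the median of all tested miRNAs was 0.94 in each of them. Quantile scaling gave 0.97 on that relative scale. The same quantity for miR-218 was 1.17 with constants and 1.43 with quantile scaling. Between the 2 arrays of nearly equal scale, replicate 3 of each breed with a 75th percentile of 939 and 943, the unscaled signal was 1.60-fold higher in the Limousin animal for the 20-base probe and 1.65-fold for the 19-base probe. For the 18-base probe it was 10.3 against 21.97. This pair was picked after the signals had been seen, and it is 1 animal of each breed.

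The direction for miR-218 and the size for miR-218_v13.0 changed with the treatment of the background. Before background correction, the mean brightness of the 18-base probe's spots was 54.9 to 60.9 in Holstein-Friesian and 70.8 to 87.0 in Limousin, over a local background of 44.7 to 48.4. Background thus made up most of what the scanner read at this probe. Scaled without background correction, the log2 difference of miR-218 was -0.36, and with the normexp correction it was -0.40, both opposite to the 1.103 above. Relative to the median of all tested miRNAs these were -0.00077 and -0.017. In these settings the scaling also multiplied the background left in the signals, or the offset of 50 that normexp adds. As scaled in this report, the factors were 1.02 to 1.73 on the Holstein-Friesian arrays and 0.61 to 1.02 on the Limousin arrays. The factors were computed anew in each setting, and their part in the sign was not tested. With every array's signals held at its lowest detected signal, miR-218 was at -0.20. In that setting its Holstein-Friesian values are those arrays' limits, 20.15 to 30.02 after scaling, against Limousin signals of 20.9 to 22.9. This sign therefore follows from the limits and is no reading of miR-218 in Holstein-Friesian. The older entry kept its sign, at 0.24 (SE 0.11) without background correction and 0.16 (SE 0.12) with normexp. Relative to the median of all these were 0.60 and 0.55. Its 19-base probe gave 0.15 (SE 0.12) and 0.081 (SE 0.12), and its breeds overlapped in both settings. With normexp the 20-base probe overlapped too, with up to 7.33 in Holstein-Friesian and from 7.26 in Limousin. The sign of the breed difference was thus the same under each alternative run for miR-218_v13.0 and not for miR-218. With normexp the older entry's difference was small beside its SE, so its sign there is weakly held.

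**Figure D3:**
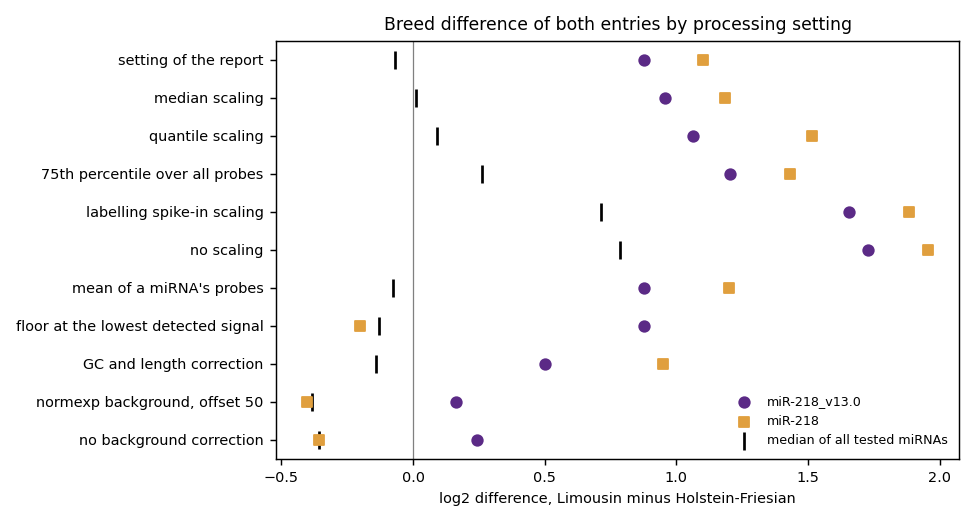
Log2 difference, Limousin minus Holstein-Friesian (horizontal axis), of both entries and of the median tested miRNA under each processing setting. The points of miR-218_v13.0 stay to the right of 0, those of miR-218 fall to the left of it in 3 settings, and the median itself ranges from -0.38 with normexp to 0.78 without scaling. In the floor setting, the Holstein-Friesian values of miR-218 are detection limits.

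Breed differences on these arrays also went with the length and base composition of the probes. Of the 117 tested miRNAs read by a probe of 18 or more bases, 30 were higher and 5 lower in Limousin by limma's adjusted p, with a median log2 difference of 0.16. Of the 97 with probes of 15 to 17 bases, 6 were higher and 32 lower, with a median of -0.21. Of the 56 with probes of 14 or fewer bases, 1 was higher and 39 were lower, with a median of -0.70. The probes that represent the 2 entries have 18 and 20 bases and GC shares of 44.4% and 40%, in the group with the higher differences, whose median GC share was 42.1%. With GC share and length fitted out on each array, miR-218_v13.0 had a log2 difference of 0.50 (SE 0.12) and miR-218 of 0.95 (SE 0.12). The part of probe length in the members' difference was tested no further than this.

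**Figure D4:**
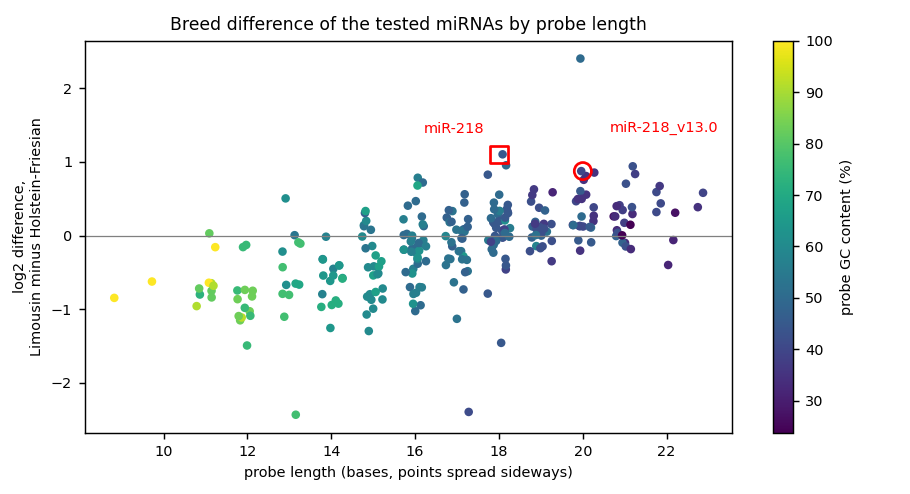
Log2 difference, Limousin minus Holstein-Friesian (vertical axis), of the 270 tested miRNAs against the length of the probe in bases (horizontal axis). Colour gives the probe's GC content, and both entries are marked in red. The medians of the 3 length groups, not drawn, were -0.70, -0.21 and 0.16. The older entry, at 0.88, stands near the top of the probes of 18 or more bases; the point of miR-218 rests on Holstein-Friesian signals below detection, so its height is no fold.

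The authors' deposited value table held the same pattern. Each of its columns was log2 of the scanner's total gene signal minus a constant of that array, to within 9.7e-06 over 784 rows, and the table does not state its scale. In it, miR-218_v13.0 was -0.33, -0.11, 0.020 and 0.13 in Holstein-Friesian and 1.07, 1.08, 0.99 and 1.20 in Limousin, without overlap. The current entry sat at the value that undetected miRNAs take in each Holstein-Friesian column, -9.32 to -8.53, and at -2.20 to -2.09 in Limousin. The log2 difference of 6.73 that this table gives for miR-218 therefore measures the stand-in value for undetected signals, not a fold. For miR-218_v13.0 the table gave 1.16.

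Other miRNAs with an older entry on the array were set beside miR-218. The array has 19 older entries, of which 5 have a current entry of the same name. In the pair of miR-218 the older entry was detected on 8 arrays and the current one on 4. The older entry of miR-1839 was likewise detected on 8 arrays and its current entry on none, with a log2 difference of -0.073 for the older one. For miR-29b, a miRNA known for targeting collagen genes, it was the other way round, with the current entry on 8 arrays and the older on 3, all Limousin. Both entries of miR-181b were detected on 8 arrays and lower in Limousin, with log2 differences of -0.41 (adjusted p = 0.0211, limma) and -0.43 (adjusted p = 0.0141, limma). These turned to 0.45 and 0.42 without scaling, and neither passed with GC share and length fitted out (adjusted p = 0.546 and 0.0935, limma). Neither entry of miR-124a, a neuronal miRNA, was detected on any array. Of the 5 pairs, both entries were tested in 2, miR-181b and miR-218 itself. The differences of the 2 entries had the same sign in each of these pairs as scaled here. Nothing is read from the pair of miR-218, which was chosen on this contrast and whose current entry was undetected in Holstein-Friesian.

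The miRNAs whose profiles over the 8 arrays lay nearest to the members were found by the root mean square difference of log2 values, each profile centred on its own mean. This measure includes the breed gap, so that near profiles share that gap by construction and their differences are given without a test. Among 269 miRNAs compared, the nearest to miR-218_v13.0 were miR-155 at 0.10, miR-192 at 0.13, miR-194 at 0.14, miR-146b at 0.14 and miR-101 at 0.15, against a median of 0.54 for all. The current entry came at place 15 with 0.22. Nearest to miR-218 were miR-146b at 0.21, miR-218_v13.0 at 0.22, let-7i at 0.25, miR-101 at 0.25 and miR-194 at 0.26, against a median of 0.66. The names miR-101, miR-146b and miR-194 were in both sets. Their log2 differences were 0.76, 0.94 and 0.72, close to the 0.88 of miR-218_v13.0. That of miR-192 was 0.83, and like miR-218 it was detected on no Holstein-Friesian array and turned to -0.38 without background correction.

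Markers of tissues in which miR-218 is known, and of other cell types of the gland, were read in the same samples. The lists were chosen with earlier results of these data known. Their counts and medians beside those of all tested miRNAs are therefore a description, and no enrichment is read from them. Of 12 neural miRNAs on the array, 10 were detected on no array, among them miR-9-5p, miR-9-3p, miR-137 and miR-138, which mark neurons. Of the 2 that were tested, miR-132 was higher in Limousin by 0.78 (adjusted p = 0.0107, limma), while miR-128 differed by -0.026 (adjusted p = 0.874, limma). Since miR-132 was detected on 1 Holstein-Friesian and 4 Limousin arrays, its test sets detected against mostly undetected signals. With the floor at the lowest detected signal it was 0.17 and no longer passed (adjusted p = 0.308, limma), and it turned to -0.33 without background correction. The summed scaled signal of the neural list was 60.2 to 87.5 in Holstein-Friesian and 85.1 to 103.6 in Limousin. A miRNA undetected on an array counts as 0 in this sum, so the unequal detection of miR-132 enters it. Of this list, miR-128 was detected on all 8 arrays.

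Of 9 tested miRNAs known from bone-forming cells, 5 were higher and 1 lower in Limousin, with a median log2 difference of 0.59, against 13.7% higher, 28.1% lower and a median of -0.069 over all 270 tested. The list's median is the value of miR-335, which did not pass (SE 0.40, adjusted p = 0.275, limma). It was detected on 1 Holstein-Friesian and 4 Limousin arrays, so this median rests on mostly undetected signals in 1 breed. In this list miR-204, which acts on the bone regulator RUNX2, was higher by 2.40 (adjusted p = 1.2e-06, limma), and miR-29b by 0.84 (adjusted p = 0.0074, limma). The one that was lower was miR-210, induced by low oxygen, at -0.52 (adjusted p = 0.0074, limma). The list's summed scaled signal was 10005 to 13967 in Holstein-Friesian and 15646 to 18767 in Limousin, without overlap. This sum holds miR-29a, miR-29b and miR-29c, whose mean log2 signals were 12.3, 10.6 and 10.6 in Holstein-Friesian and 12.9, 11.4 and 11.3 in Limousin. For miR-204 the means were 7.53 and 9.93. All of miR-29a, miR-29b and miR-29c counted among the higher ones, and as 1 family they are no independent members. With GC share and length fitted out, 2 of the 9 were higher and 1 lower, and miR-29b no longer passed (adjusted p = 0.168, limma). Without scaling, miR-210 turned to 0.34.

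Of 15 tested stromal fibroblast miRNAs, 6 were higher and 1 lower in Limousin, with a median of 0.18, beside the same 13.7% and 28.1% over all tested. The members miR-199c and miR-199b, of a family abundant in connective tissue, were higher by 0.56 (adjusted p = 0.0066, limma) and 0.59 (adjusted p = 0.0089, limma). Also counted as higher were miR-199a-3p at 0.47 and miR-199a-5p at 0.36, and as 1 family these are no independent members. The 8 that did not pass lay between -0.23 for miR-145 and 0.26 for miR-152, with miR-214 at 0.0048 and miR-143 at -0.064. The summed signals overlapped, at 15650 to 18149 in Holstein-Friesian and 17689 to 20396 in Limousin. The one that was lower was miR-455-3p at -0.41 (adjusted p = 0.0232, limma), which turned to 0.45 without scaling. With GC share and length fitted out, 2 were higher and 3 lower, and miR-199b no longer passed (adjusted p = 0.901, limma).

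Of 6 tested leukocyte miRNAs, 3 were higher in Limousin and none lower, with a median of 0.29, where 13.7% of all tested were higher and 28.1% lower. These were miR-155, a miRNA of activated immune cells, at 0.95 (adjusted p = 0.0012, limma), miR-146b at 0.94 (adjusted p = 0.0012, limma) and miR-142-5p at 0.56 (adjusted p = 0.0223, limma). Their list was summed to 1631 to 2195 in Holstein-Friesian and 2181 to 2614 in Limousin, with the leukocyte marker miR-142-3p and miR-146a detected on no array. The other 3 did not pass, with miR-342 at -0.13 (adjusted p = 0.392, limma), miR-223 at -0.15 (adjusted p = 0.606, limma) and miR-150 at 0.022 (adjusted p = 0.931, limma), each detected on all 8 arrays. With GC share and length fitted out, miR-142-5p no longer passed (adjusted p = 0.342, limma). Both miRNAs with the largest differences of this list were also among the profiles nearest to the members. That measure includes the breed gap, so nothing is read from this.

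Of 9 tested epithelial miRNAs, 0 passed limma's adjusted threshold, and 0 passed an unadjusted p of 0.05. The smallest p-values belonged to miR-96 at 0.32 (adjusted p = 0.112, limma) and miR-200c at -0.17 (adjusted p = 0.227, limma), the latter of the family that marks epithelium. Their sum was 18566 to 21104 in Holstein-Friesian and 19888 to 21818 in Limousin, so the summed signals of the breeds overlapped. The share of epithelium in the tissue was not measured. Neither endothelial miRNA passed, with miR-126-5p at 0.41 (adjusted p = 0.0783, limma) and miR-126-3p at 0.20 (adjusted p = 0.231, limma), nor did the 1 tested muscle miRNA, miR-1, at 0.26 (adjusted p = 0.487, limma). At an unadjusted p of 0.05, 1 of the 2 endothelial miRNAs and 0 of the muscle ones would have passed. The endothelial sum was 2737 to 3509 in Holstein-Friesian and 3180 to 4006 in Limousin, and the muscle sum 0 to 65.1 and 17.96 to 90.6. Undetected miRNAs count as 0 in these sums, and miR-1 was detected on 2 Holstein-Friesian and 4 Limousin arrays. Without scaling, all 9 epithelial, 6 leukocyte and 14 of 15 stromal miRNAs passed as higher in Limousin, along with both endothelial ones and miR-1. The part of any of these cell types in the difference of miR-218 was not tested.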

How the data were processed

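Small RNA of mammary tissue from 4 Holstein-Friesian and 4 Limousin heifers, labelled as biological replicates, was hybridised to one-colour Agilent arrays. The deposited scanner files give, per the file headers, background-subtracted spot intensity from Agilent Feature Extraction 10.10.1.1 and flags for spots well above background. The deposited value table holds log2 values of the same arrays. The members and lists were chosen with earlier results of these data known. Control and outlier spots were left out, and spots of a probe were averaged. Each array was scaled to a common 75th percentile, taken over the probes that every array detected. Signals were held at a floor of 1 before log2. A miRNA was read from its brightest probe and tested if detected on all 4 arrays of a breed, which held for 270 of 763. In the lists' sums of scaled signal, a miRNA undetected on an array counted as 0. limma 3.58.1 in R 4.3.3 (lmFit, eBayes, breed only) gave differences and SE, with Benjamini-Hochberg adjustment at 0.05, and was tested on simulated data. Adjusted p-values are not given for the members. Named miRNAs were the members, the 5 nearest profiles to each, of each list the 2 tested members of smallest p, and the pairs of entries with both tested; others named were chosen after their values were seen. Probe sequences come from the scanner files. The number of arrays limits the precision. Alternatives covered the scaling, background, floor, probe choice, filters, probe composition, replicate number and each animal left out.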

Additional observations from a re-analysis of the deposited data

How the results depend on the processing

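Without Holstein-Friesian or Limousin replicates in turn, the log2 difference ranged from 0.99 to 1.22 for miR-218 and from 0.82 to 0.95 for miR-218_v13.0, and the count of miRNAs past the threshold from 71 to 150. That count was 113 with all arrays, 71 without Limousin replicate 1 and 74 without Holstein-Friesian replicate 4. For miR-218 the difference was 1.43 with the percentile over all probes, 1.52 with quantile scaling, 1.96 without scaling, 1.88 with the spike-in and 6.73 in the deposited table. It turned to -0.40 with normexp, -0.36 without background correction and -0.20 with the floor at the lowest detected signal. The 17-base probe gave -0.71, -0.71 and -0.90. With that floor, the Holstein-Friesian values of miR-218 and all values of the 17-base probe are detection limits. For miR-218_v13.0 the values were 1.20, 1.06, 1.73, 1.66 and 1.16 in the same order of scalings, 0.16 with normexp, 0.24 without background correction and 0.50 with GC and length fitted out. The count was 175 without scaling, 177 with the spike-in, 172 with normexp and 170 without background correction. With a replicate block the differences stayed 1.103 and 0.88 and the count was 84; with GC, length and the replicate block they were 0.95 and 0.50 and the count was 61. Residuals of same-numbered arrays correlated at -0.31, -0.25, -0.45 and 0.32, and not every array correlated best with its own number. With 4 arrays per breed, these correlations cannot settle whether the replicate numbers pair the animals. Under the detection filter on all 8 arrays, and with all spots required well above background, miR-218 was not tested. The cause of these shifts was not tested. The lists' counts were recomputed under the same settings, an addition chosen after seeing the data. The signal of miR-218 was well above background on the Limousin arrays only.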
